A study of Mus musculus with 14 samples.

Results

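Nbr1, Optn, Tax1bp1, Calcoco1, Tollip, Wdfy3, Ncoa4 and Tbk1 are cargo receptors of selective autophagy, or close partners of such receptors, with roles like that of p62. They were followed in hearts with and without p62 in cardiac muscle. The 8 genes were chosen by name for this role, with earlier results of these data known but by no rule on measured values, and their Ensembl identifiers were looked up in the GENCODE M21 annotation. All 8 were found among the 55487 identifiers of the count table, and all 8 were among the 15528 genes with enough counts to be tested.

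Selective autophagy removes chosen cargo, such as protein aggregates, damaged mitochondria, endoplasmic reticulum or ferritin, in membrane vesicles that fuse with lysosomes. A receptor holds the cargo on one side, often through a ubiquitin chain, and on the other side binds Atg8 proteins (the LC3 and GABARAP families) on the growing membrane. p62, encoded by Sqstm1, is the best known of these receptors, and its loss raises the question of whether the genes of related receptors change. In cardiac muscle, whose cells are long-lived, aggregates and mitochondria are major cargo.

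RNA was sequenced from whole hearts of untreated male C57BL/6 mice in 4 groups. These were wild type at 2 months (3 hearts), the cardiac p62 knockout Myh6-Cre-Sqstm1fl/fl at 2 months (3 hearts), wild type at 15 months (4 hearts) and the same knockout at 15 months (4 hearts). In the knockout, Sqstm1 is flanked by loxP sites and is removed by Cre recombinase made from the promoter of Myh6, a myosin gene of cardiac muscle cells, so that other cells of the heart keep the gene. The labels do not say whether the wild-type mice carried Cre or the floxed allele. Nor do they name separate litters, days or extractions for the hearts of a group, and p-values here rest on the spread between samples, which may in part be technical.

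Libraries held 20218992 to 30404416 counts, of which 27.5% to 46.0% fell on mitochondrially encoded genes. The members had 200 (Tbk1) to 4386 (Nbr1) counts per library, so that counting error weighs most on Tbk1. All 8 markers of cardiomyocytes fixed for the check of the tissue were detected in every group, with a summed level of 35945 to 45878 CPM (counts of a gene scaled to a common, TMM-normalised library total). The length slope of a library is that of log2 CPM, taken against each gene's mean over the 14 libraries, on log2 exon length, and it shows whether long transcripts are high or low in that library as a whole. It was negative in all 6 libraries at 2 months (-0.18 to -0.011) and positive in 6 of 8 at 15 months (0.047 to 0.24). The exceptions at 15 months were wild-type replicate 2 (-0.074) and knockout replicate 1 (-0.092), and the latter also had the highest mitochondrial share. The atrial light chain gene Myl7 stood at 638 CPM in replicate 1 of the young wild-type hearts, so this library held atrial transcripts. At 15 months Myl7 was at 39.7, 15.0 and 26.9 CPM in wild-type replicates 1, 2 and 4 and at 58.1 CPM in knockout replicate 1. In every other library it was at or below 0.48 CPM.

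The targeted gene was checked first. At 2 months the wild-type levels of Sqstm1 were 177, 139 and 169 CPM, and the knockout levels 15.2, 14.7 and 19.2 CPM. At 15 months the wild-type levels were 208, 186, 238 and 173 CPM, and the knockout levels 14.6, 36.99, 16.2 and 17.6 CPM. The groups did not overlap at either age, and the knockout mean was 10.1% and 10.6% of wild type. By an exact two-sided permutation test of mean log2 CPM, p was 0.1 at 2 months and 0.0286 at 15 months, which are the lowest values that groups of 3 and of 4 can give.

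To set the transcript level of Sqstm1 beside those of the members, levels were divided by the exon length of each gene (CPM per kb). In wild-type hearts Sqstm1 was the most abundant of these genes, at 48.2 ± 5.97 CPM per kb at 2 months (SD, n = 3) and 59.9 ± 8.42 at 15 months (SD, n = 4). The next was Optn, at 12.1 ± 1.30 and 19.8 ± 2.54 CPM per kb, so that the mean level of Sqstm1 was 3.99 and 3.03 times that of the next gene. The ranges of Sqstm1 and Optn did not overlap. These ratios and the orders below rest on the exon length over all annotated transcripts of a gene. It was 5731 bases for Calcoco1, against 2968 in its longest transcript, and 3753 against 2614 for Optn. For Tax1bp1 it was 9991 against 4249, and for Sqstm1 3356 against 2673. Orders and ratios by the longest transcript were not worked out and may differ.

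Below Sqstm1, the order at 2 months in wild type was Optn, Calcoco1 (11.4 ± 2.94 CPM per kb), Tollip (10.8 ± 0.69), Nbr1 (8.41 ± 1.74), Tax1bp1 (7.21 ± 0.75), Wdfy3 (3.72 ± 0.43), Tbk1 (3.58 ± 0.099) and Ncoa4 (2.48 ± 0.35). Neighbours in this order overlapped in range except at 2 steps below Sqstm1, from Tax1bp1 to Wdfy3 and from Tbk1 to Ncoa4. At 15 months in wild type the order was Optn, Calcoco1 (16.7 ± 3.79), Nbr1 (13.5 ± 3.23), Tollip (11.6 ± 1.01), Tax1bp1 (9.22 ± 1.64), Wdfy3 (4.87 ± 0.99), Ncoa4 (3.52 ± 0.56) and Tbk1 (3.50 ± 0.38). The steps from Tax1bp1 to Wdfy3 and from Wdfy3 to Ncoa4 had no overlap.

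In knockout hearts Sqstm1 ranked 6 of the 9 genes at both ages, at 4.88 ± 0.74 CPM per kb at 2 months and 6.36 ± 3.13 at 15 months. Calcoco1 (13.8 ± 2.21 and 19.3 ± 4.54) and Optn (12.4 ± 1.18 and 17.3 ± 1.95) then had the highest means, with overlapping ranges. Nbr1 was at 10.4 ± 1.502 CPM per kb at 2 months and 15.7 ± 4.09 at 15 months in knockout.

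Sqstm1 made up 46.2% ± 1.25 of the summed level of the 8 receptors at 2 months in wild type (Sqstm1 and the members without the kinase Tbk1) and 43.0% ± 2.24 at 15 months. In knockout it made up 7.41% ± 1.05 and 7.004% ± 2.57. Other receptors, tested further below, were not part of this sum. These are therefore shares of the 8 chosen receptors and not of all receptor transcripts. The summed level of the 7 receptors other than Sqstm1 was 61.2, 50.9 and 56.1 CPM per kb in the 3 wild-type libraries and 53.9, 66.0 and 63.8 in the 3 knockout libraries at 2 months. In aged hearts this sum was 87.2, 69.6, 84.8 and 74.9 as wild type and 64.3, 91.5, 93.6 and 81.6 as knockout. The genotypes overlapped at both ages, and the sums with Sqstm1 did not, at 92.3 to 114 against 58.5 to 70.4 at 2 months and 125 to 156 against 68.7 to 103 at 15 months. Exon length enters these values directly: with the longest annotated transcript in its place, Sqstm1 made up 39.7% and 36.7% in wild type.

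**Figure D1:**
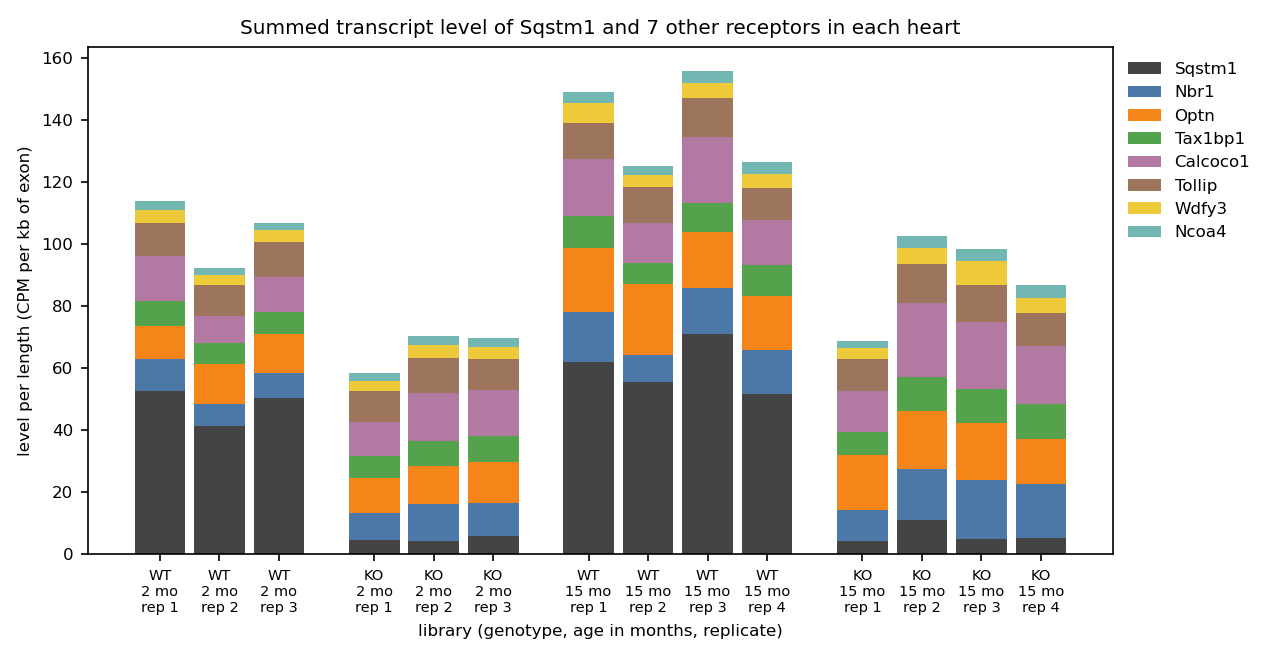
Stacked bars give the level per length (CPM per kb of exon) of Sqstm1 and 7 other receptors in each of the 14 heart libraries, by genotype (WT, KO), age and replicate. The dark Sqstm1 segment makes up 40.8% to 47.4% of each wild-type bar and 4.89% to 10.7% of each knockout bar, while the summed coloured segments of the genotypes overlap in height.

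The receptors that recognise ubiquitin were compared between genotypes first. Nbr1 (ENSMUSG00000017119, chromosome 11, 101552149 to 101581951, plus strand, GRCm38) encodes a receptor that, like p62, carries a PB1 domain and pairs with it. At 2 months the wild-type hearts had 71.0, 47.8 and 54.6 CPM and the knockout hearts 60.3, 80.6 and 73.4 CPM. At 15 months the wild-type hearts had 110.2, 60.2, 102 and 97.5 CPM and the knockout hearts 67.5, 113, 132 and 119.6 CPM. The groups overlapped at both ages, with 1 knockout library below the wild-type mean at 15 months. Over both ages the log2 fold change, knockout against wild type, was 0.26, with a 95% confidence interval of -0.094 to 0.62. This was the largest of the 8 members, with an unadjusted p of 0.137 (edgeR quasi-likelihood test, adjusted p = 0.999).

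Optn (ENSMUSG00000026672, chromosome 2, 5020642 to 5064051, minus strand) encodes optineurin, which binds ubiquitin on damaged mitochondria and bacteria. Young wild-type hearts had 39.7, 48.7 and 47.5 CPM and young knockout hearts 41.7, 46.8 and 50.5 CPM. Aged wild-type hearts had 77.5, 86.2, 67.7 and 65.4 CPM and aged knockout hearts 66.3, 70.2, 69.0 and 54.3 CPM. The genotypes overlapped at both ages, and the log2 fold change over both ages was -0.079 (interval -0.29 to 0.13).

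Tax1bp1 (ENSMUSG00000004535, chromosome 6, 52713729 to 52766780, plus strand) encodes a ubiquitin receptor that recruits the initiation complex to aggregates. Its levels at 2 months were 80.7, 67.5 and 68.0 CPM without the deletion and 71.0, 79.6 and 81.4 CPM with it. Its levels at 15 months were 104, 68.2, 95.1 and 101 CPM without the deletion and 75.3, 110.0, 108 and 114 CPM with it. The groups overlapped, and the log2 fold change over both ages was 0.12 (interval -0.13 to 0.38). Tollip (ENSMUSG00000025139, chromosome 7, 141874813 to 141918507, minus strand), an endosomal adaptor with a ubiquitin-binding CUE domain, had 54.6, 51.1 and 58.1 CPM in young wild-type and 49.6, 57.4 and 51.7 CPM in young knockout hearts. In aged hearts the wild-type values were 59.5, 59.1, 64.1 and 51.7 CPM and the knockout values 50.8, 62.5, 61.5 and 54.1 CPM. Its genotypes overlapped too, with a log2 fold change over both ages of -0.039 (interval -0.22 to 0.14).

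Receptors and scaffolds for other cargo, and the kinase Tbk1, were compared in the same way. Calcoco1 (ENSMUSG00000023055, chromosome 15, 102706777 to 102722178, minus strand), a receptor for endoplasmic reticulum and Golgi membranes, had 82.4, 48.8 and 64.8 CPM in young wild-type and 64.4, 87.7 and 84.6 CPM in young knockout hearts. Aged wild-type hearts had 105, 73.8, 122 and 82.6 CPM and aged knockout hearts 76.4, 137, 123 and 106 CPM. The groups overlapped and the log2 fold change over both ages was 0.24 (interval -0.11 to 0.59). Wdfy3 (ENSMUSG00000043940, chromosome 5, 101832956 to 102069921, minus strand) encodes Alfy, a large scaffold that joins p62-bound aggregates to the autophagy membrane. The young hearts had 64.1, 51.0 and 56.0 CPM as wild type and 52.2, 65.9 and 57.1 CPM as knockout. The aged hearts had 95.7, 59.1, 72.1 and 72.4 CPM as wild type and 55.4, 80.7, 116 and 75.2 CPM as knockout, where replicate 3 was the highest. Its groups overlapped, with a log2 fold change over both ages of 0.081 (interval -0.24 to 0.40).

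Ncoa4 (ENSMUSG00000056234, chromosome 14, 32159865 to 32179855, plus strand) encodes the receptor that delivers ferritin for degradation. Young wild-type hearts had 27.0, 21.3 and 21.4 CPM and young knockout hearts 23.2, 26.9 and 26.2 CPM. Aged wild-type hearts had 35.3, 25.0, 35.7 and 35.8 CPM and aged knockout hearts 21.7, 36.6, 37.5 and 40.4 CPM. Each group at 15 months held 1 library well below its others, and the genotypes overlapped, with a log2 fold change over both ages of 0.089 (interval -0.20 to 0.38). Tbk1 (ENSMUSG00000020115, chromosome 10, 121546455 to 121586787, minus strand) encodes a kinase that phosphorylates Optn and p62 and so strengthens their binding to cargo. The young hearts had 13.7, 14.4 and 13.8 CPM as wild type and 13.7, 12.6 and 16.3 CPM as knockout. The aged hearts had 13.2, 13.02, 12.6 and 15.9 CPM as wild type and 10.8, 13.002, 16.1 and 16.5 CPM as knockout. All 4 groups overlapped, and the log2 fold change over both ages was 0.032 (interval -0.21 to 0.27).

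**Figure D2:**
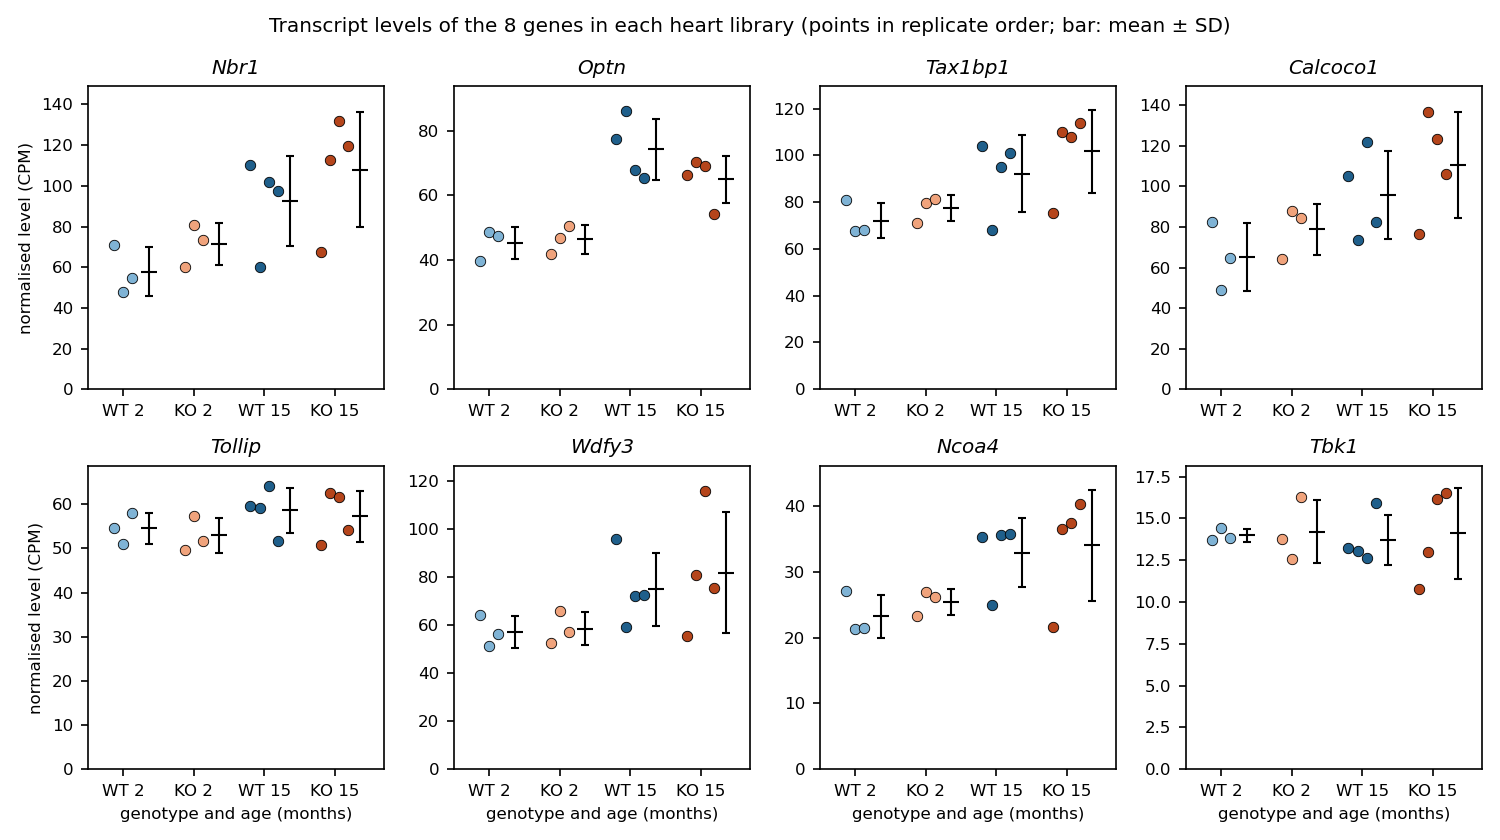
Points give the normalised level (CPM) of each of the 8 genes in each heart library, by genotype (WT, KO) and age in months, in replicate order, and bars give the mean ± SD (n = 3 at 2 months, n = 4 at 15 months). Wild-type and knockout points overlap in every panel at both ages, and in the Optn panel all 8 points at 15 months (54.3 to 86.2 CPM) lie above all 6 points at 2 months (39.7 to 50.5 CPM).

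None of the 8 members passed the edgeR test (Benjamini-Hochberg adjusted p below 0.05) between genotypes, whether at 2 months, at 15 months or over both ages. The share of all tested genes that passed was 0.00644% in each of these comparisons, which is 1 gene, Sqstm1. Of the 8 members, 0 had an unadjusted p under 0.05 in any of the comparisons, and DESeq2 and limma voom also called 0 members in each. The lowest unadjusted p was 0.25 at 2 months and 0.153 at 15 months. No member had groups that did not overlap, where 8.15% of all tested genes had such groups at 2 months and 1.99% at 15 months. Fold changes of the members on the log2 scale ranged from -0.045 to 0.30 at 2 months and from -0.19 to 0.22 at 15 months. Over both ages the widest reach of an interval was 0.62 upward (Nbr1) and -0.29 downward (Optn), so that a doubling, a log2 fold change of 1, lay outside all 8 intervals. At 2 months the highest bound was 0.85 and at 15 months 0.69.

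The genotype effect was also compared between ages. The change of the knockout effect from 2 to 15 months was past the edgeR threshold for 0 of 8 members and for 0% of all tested genes. Of all tested genes, 577 had an unadjusted p under 0.05 for this difference, 0 of them members, and DESeq2 called 1 gene. For Optn the difference was -0.23 (interval -0.64 to 0.19, unadjusted p = 0.264), and the other members lay between -0.082 and 0.095. Intervals for this difference reached from -0.80 to 0.74 on the log2 scale.

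The ages were then compared within each genotype. In wild-type hearts Optn rose between 2 and 15 months, from 45.3 ± 4.89 CPM (SD, n = 3) to 74.2 ± 9.54 CPM (SD, n = 4). The log2 fold change was 0.71 (SE 0.14), a fold of 1.64 with a 95% confidence interval of 1.33 to 2.01 (edgeR quasi-likelihood test, p adjusted by the Benjamini-Hochberg method = 0.0301). Optn was the 1 member of 8 that passed in this comparison, in which 1.04% of all tested genes passed and 0.612% rose. The call was lost when only the groups compared entered the fit (adjusted p = 0.0699), without wild-type replicate 1 at 15 months (0.0977) and without wild-type replicate 2 (0.0906) or replicate 3 (0.0668) at 2 months. The log2 fold change in these fits stayed between 0.69 and 0.77.

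In knockout hearts Optn was at 46.4 ± 4.43 CPM at 2 months and 65.0 ± 7.31 CPM at 15 months, a log2 fold change of 0.49 (SE 0.14). It did not pass the edgeR test (adjusted p = 0.07), passed with DESeq2 (adjusted p = 0.0136), and passed with edgeR without knockout replicate 1 at 15 months (adjusted p = 0.0351). In this comparison edgeR called 0 of 8 members and 2.25% of all tested genes (1.07% rose). An unadjusted p under 0.05 was found for 5 of 8 members and for 26.7% of all tested genes. In both genotypes every library at 15 months was above every library at 2 months for Optn and for no other member. Of all tested genes, 8.6% in wild type, 8.83% in knockout and 1.86% in both genotypes together had every 15-month library above every 2-month library.

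Several other members had higher means at 15 months without passing the test within a genotype. For Nbr1 the log2 fold change with age was 0.68 (SE 0.24, adjusted p = 0.134) in wild type and 0.60 (SE 0.24, adjusted p = 0.136) in knockout by the edgeR test. Calcoco1 gave 0.55 and 0.49, Ncoa4 0.50 and 0.42, Wdfy3 0.39 and 0.49, and Tax1bp1 0.35 and 0.40 on the log2 scale, with overlapping groups in each case. The median over the 8 members was 0.45 in both genotypes, beside -0.018 and 0.0058 over all genes tested. Tollip (0.10 and 0.11) and Tbk1 (-0.031 and -0.0077) had the smallest values. The wild-type and knockout intervals for Tbk1 were -0.37 to 0.31 and -0.35 to 0.33, and those for Tollip -0.15 to 0.35 and -0.14 to 0.37.

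**Figure D3:**
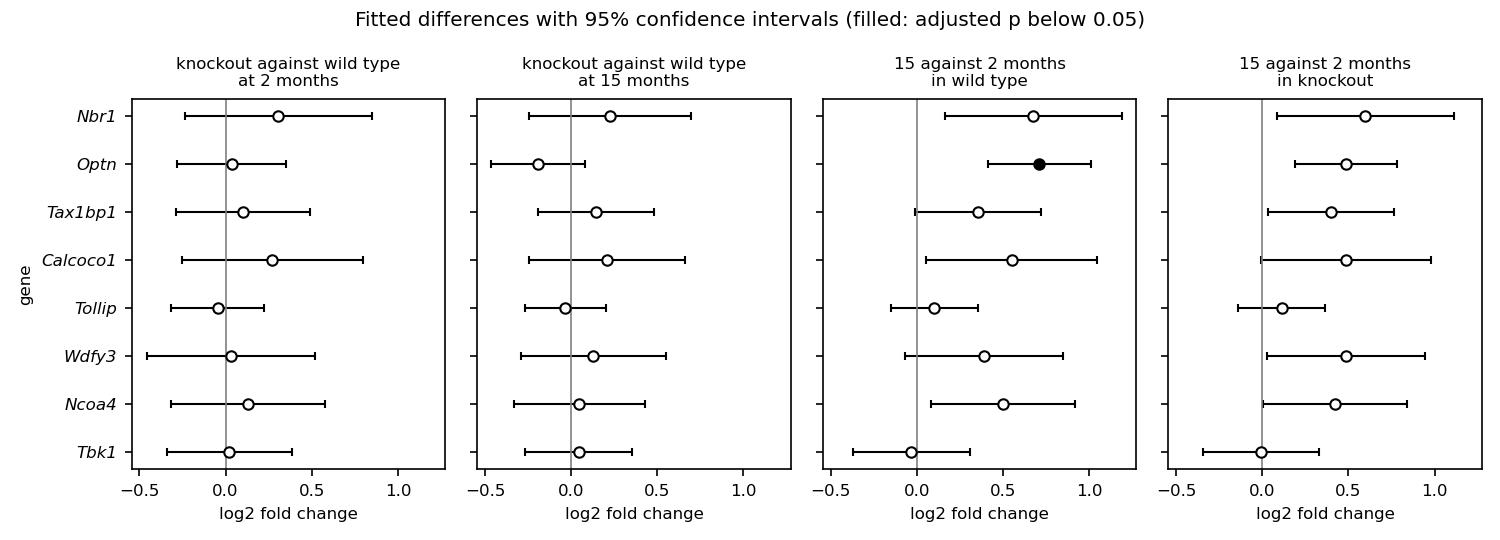
Points give the fitted log2 fold change of each gene in 4 comparisons and horizontal lines its 95% confidence interval, with a filled point where the Benjamini-Hochberg adjusted p of the edgeR test was below 0.05. All 16 intervals between genotypes include 0, and the 1 filled point is Optn between ages in wild type, at 0.71.

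The mean of the 2 age effects was tested as well, a comparison added after the data were seen. With both genotypes together, 6 of 8 members rose with age, where 10.8% of all tested genes rose and 13.1% fell. These were Nbr1 (log2 fold change 0.64, adjusted p = 0.0192), Optn (0.60, adjusted p = 0.00255), Calcoco1 (0.52, adjusted p = 0.0348), Ncoa4 (0.46, adjusted p = 0.0289), Wdfy3 (0.44, adjusted p = 0.0488) and Tax1bp1 (0.38, adjusted p = 0.0372), all by the edgeR quasi-likelihood test. The call of Wdfy3 was lost with limma voom (adjusted p = 0.0595) and with mitochondrially encoded genes left out (edgeR adjusted p = 0.0507), and those of Ncoa4 (0.0526) and Tax1bp1 (0.0706) with a replicate block. Tollip was at 0.11 and Tbk1 at -0.019, and neither passed. The number of members called was 1 without wild-type replicate 2 or without knockout replicate 1 at 2 months, where the genes called among all tested fell from 3712 to 1651 and 1531. It was 2 without wild-type replicate 3 or knockout replicate 3 at 2 months, without wild-type replicate 1 or 3 at 15 months, and without knockout replicate 2, 3 or 4 at 15 months, where fewer of all tested genes were called as well. Optn was called in each of the 14 fits that left out 1 library, with an adjusted p of 0.00117 to 0.0129.

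The length slope moved with the levels of most members within groups. Wild-type replicate 2 and knockout replicate 1, the libraries with a negative length slope at 15 months, had the lowest value of their group for 5 and 7 of the 8 members. Optn went the other way in wild type, where replicate 2 had the highest value of its group, 86.2 CPM. At 2 months the library of each genotype with the most negative slope, wild-type replicate 2 (-0.18) and knockout replicate 1 (-0.14), was the lowest of its group for 6 and 7 of the 8 members. With the length slope as a covariate in the fit, Optn still rose with age in wild type (0.76, SE 0.15, adjusted p = 0.019) and over both genotypes (0.66, adjusted p = 0.0111). In knockout its value was 0.55, with an adjusted p of 0.195 by the edgeR test. The other 5 members that had passed over both genotypes were then between -0.074 (Wdfy3) and 0.037 (Nbr1), and none passed. Of all tested genes, 0.457% in wild type, 0.348% in knockout and 0.837% over both genotypes rose with age in this fit.

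Age and length slope overlapped in these libraries, so that their parts in the levels of the 8 members, Optn included, cannot be told apart. At 15 months only wild-type replicate 2 and knockout replicate 1 had slopes within the range of the 2-month libraries. When both libraries of negative slope at 15 months were left out, an alternative added after the data were seen, 5 of 8 members rose in wild type, 6 of 8 in knockout and 6 of 8 over both genotypes. Of all tested genes, 7.8%, 12.9% and 20% rose in these comparisons. The libraries left out were those with the lowest value of their group for 5 and 7 of the 8 members. Without them every slope at 15 months was positive and every slope at 2 months negative, so this fit cannot part age from slope. Optn was at 0.63 and 0.48 in that fit (edgeR adjusted p = 0.0134 and 0.0215). The median exon length of the 8 members was 6301 bases, beside 4113 over all genes tested, and that of Optn was 3753 and of Wdfy3 15346 bases. The 4 members with the shortest exon length were Optn, Tbk1 (3910 bases), Tollip (5059 bases) and Calcoco1 (5731 bases). Of these, Optn (0.60) and Calcoco1 (0.52) had been called with age over both genotypes in the main fit, and Tbk1 and Tollip had not.

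**Figure D4:**
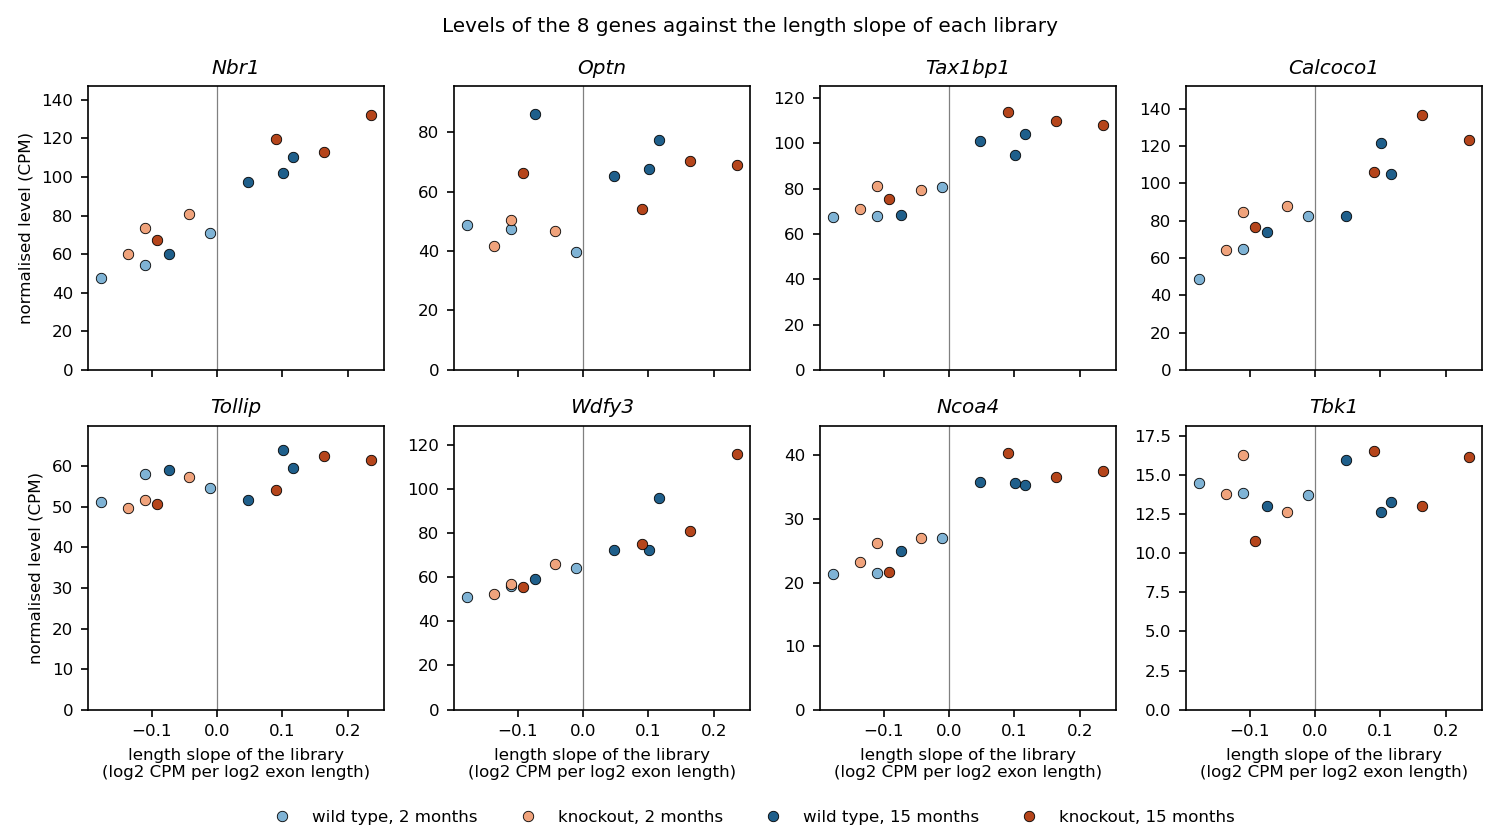
Each panel gives the level (CPM) of 1 gene in the 14 libraries against the length slope of the library (log2 CPM per log2 exon length), coloured by genotype and age, with a grey line at a slope of 0. The Nbr1 and Ncoa4 points of the 2 libraries with a negative slope at 15 months (60.2 and 67.5 CPM for Nbr1, 25.0 and 21.7 CPM for Ncoa4) lie among those of the 2-month libraries, while for Optn (86.2 and 66.3 CPM) they lie with those of the other 15-month libraries.

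Markers of other cell types were read beside the age differences. In whole tissue, fewer cells of a type and less RNA per cell cannot be told apart. The summed level of the 8 cardiomyocyte markers was 35945 to 41187 CPM in wild type at 2 months and 38070 to 45878 CPM at 15 months. That of the 8 fibroblast markers was 501 to 1287 CPM and 323 to 729.6 CPM, that of the 7 endothelial markers 684 to 915 CPM and 741 to 919 CPM, and that of the 8 macrophage markers 143 to 182 CPM and 86.6 to 168 CPM. None of these markers was at 0 throughout a group. The largest part of the endothelial sum in wild type was Fabp4, at 343 to 597 CPM at 2 months and 254 to 437 CPM at 15 months. The 6 atrial markers summed to 92.4 to 1637 CPM in wild type at 2 months and 3.80 to 276 CPM at 15 months. In wild-type replicates 2 and 3 at 2 months this sum rested on Nppa (89.4 and 128 CPM), with Myl7 at 0.060 and 0.077 CPM. The range of the sum is therefore no measure of atrial tissue in each of these hearts. The sum of 5 skeletal muscle markers, which rests on Ckm and Acta1, both also made by heart muscle, was 1441 to 1833 CPM in wild type at 2 months and 1316 to 1482 CPM at 15 months. In knockout it was 1620.0 to 1780 CPM and 1090 to 1212 CPM, without overlap. Myh4, a myosin of fast skeletal fibres, was at 0 in all 14 libraries. In knockout the fibroblast sum was 509 to 662 CPM at 2 months and 553 to 998 CPM at 15 months. The endothelial sum there was 800 to 966 CPM and 762 to 1506 CPM. Over both genotypes the edgeR test called 3 of the 3 tested skeletal muscle markers lower (median -1.06) and 3 of the 7 endothelial markers higher. The endothelial median was 0.50, with 5 markers above 0 and 2 below. Of the cardiomyocyte markers 2 were called higher and 1 lower, and 1 atrial and 1 smooth muscle or mural marker were called lower. Of all tested genes, 10.8% rose and 13.1% fell in this comparison. The part of these differences in the levels of Optn and the other members was not tested. Without wild-type replicate 1 at 2 months, the library with the most Myl7, the log2 fold change of Optn in wild type was 0.64 (edgeR adjusted p = 0.0452). The wild-type libraries at 15 months with Myl7 at 15.0 to 39.7 CPM stayed in this fit.

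The wider machinery was described with 7 lists of receptors and partners, 97 genes in all, of which 96 were tested. Calcoco2, the receptor NDP52 in humans, had too few counts. Between genotypes, edgeR, DESeq2 and limma voom each called 0 of these genes at 2 months, at 15 months and over both ages. In each comparison 2 had an unadjusted edgeR p under 0.05, as did 3.18%, 3.97% and 3.26% of all tested genes. The values with the smallest p over both ages were 0.21 for Tnip1, an adaptor that works with the ubiquitin editor A20, and -0.29 for Ftl1, the ferritin light chain. Nfe2l2, which encodes Nrf2, the transcription factor that p62 frees from Keap1, was at 0.31 (SE 0.18, adjusted p = 0.999).

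With age in wild type, 2 of the 96 genes rose and 0 fell by the edgeR test, where 0.612% of all tested genes rose and 0.425% fell. DESeq2 called 7 higher and 1 lower, and limma voom 2 higher. The pair called by edgeR is in the list of 13 partners of Nbr1 and p62 in muscle and signalling. Trim54, the muscle ubiquitin ligase MuRF3, was at 57.5, 59.2 and 61.4 CPM at 2 months and at 128, 124, 112 and 97.7 CPM at 15 months. The 15-month values were all higher, with a log2 fold change of 0.96 (SE 0.14, adjusted p = 0.0044). Prkcz, an atypical protein kinase C whose PB1 domain binds that of p62, was at 1.98, 0.60 and 1.12 CPM at 2 months and 4.20, 4.56, 3.05 and 3.58 CPM at 15 months. Its groups did not overlap either, with a log2 fold change of 1.61 (SE 0.34, adjusted p = 0.0375). With the length slope as a covariate Trim54 kept its call in wild type (0.88, adjusted p = 0.00602), and Prkcz did not (1.38, adjusted p = 0.0615).

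In knockout hearts the edgeR test called 0 of the 96 genes with age, and 24 had an unadjusted p under 0.05, as did 26.7% of all tested genes. DESeq2 called 6 and limma voom 1. Trim54 was at 54.5, 70.1 and 73.3 CPM at 2 months and 79.9, 87.6, 98.2 and 88.6 CPM at 15 months in knockout, again without overlap, and gave 0.43 (adjusted p = 0.0884). Prkcz gave 1.20 (adjusted p = 0.0663).

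Over both genotypes, 17 of the 96 genes rose and 9 fell with age, where 10.8% of all tested genes rose and 13.1% fell. The counts by list that follow are to be read beside these shares. Of the 15 genes of the Atg8 family and its lipidation, which attach Atg8 proteins to the membrane that receptors bind, 5 fell and 0 rose. Examples are Map1lc3a (-0.62, adjusted p = 0.0102), Gabarap (-0.50, adjusted p = 0.014), Map1lc3b (-0.49, adjusted p = 0.0205) and Gabarapl2 (-0.73, adjusted p = 0.0271), all by edgeR. The median of the list was -0.35 and its median exon length 3154 bases, and 0 of the 15 passed with the length slope as a covariate. Exon lengths differed among the named genes, at 1181 (Map1lc3a), 1844 (Gabarap), 7517 (Map1lc3b) and 2325 bases (Gabarapl2). Of the 14 genes of the initiation complexes that receptors recruit, 7 rose and 0 fell, among them Atg13 (0.44), Atg14 (0.37), Pik3r4 (0.73) and Atg2b (0.51). Their median was 0.30 at a median exon length of 6232 bases, and 0 of the 14 passed with the covariate.

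The partners of Nbr1 and p62 rose in 6 of 13 cases over both genotypes, where 10.8% of all tested genes rose and 13.1% fell. Among them were Trim54 (0.69), Prkcz (1.40), the deubiquitinase Cyld (0.29) and Trim55, the muscle ligase MuRF2 (0.41). With the length slope as a covariate 1 of the 13, Trim54, passed (0.60, edgeR adjusted p = 0.0134). The values of Prkcz (1.09, adjusted p = 0.0674), Trim55 (0.46, adjusted p = 0.136) and Cyld (0.31, adjusted p = 0.153) in that edgeR fit remained above 0 without passing. Of 23 other receptors tested, 1 rose and 3 fell. Hdac6, a deacetylase that carries aggregates along microtubules, was at 0.54, and the mitophagy receptors Fundc1 (-0.48) and Phb2 (-0.48) and the Golgi receptor Yipf4 (-0.46) were lower. Of the partners of Ncoa4, Slc40a1, the iron exporter ferroportin, rose (0.71, adjusted p = 0.0137), as did Herc2 (0.71, adjusted p = 0.027), a ubiquitin ligase that controls Ncoa4. Of the partners of Optn, Tax1bp1 and Tollip, the motor Myo6 rose (0.37) and Rab8a fell (-0.27). In the list of 11 partners of Tbk1, edgeR called 0. An unadjusted p under 0.05 was found for 2 of them and for 39.2% of all tested genes. Tank, an adaptor of Tbk1, was at -0.29 (edgeR adjusted p = 0.0548). Of the genes of the lists of other receptors and of the partners of Ncoa4, Optn, Tax1bp1, Tollip and Tbk1, 0 passed the edgeR test with the length slope as a covariate.

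The genes most like each member were found by the Pearson correlation of log2 CPM over the 14 libraries, among 12722 genes with a mean of at least 1 CPM. The libraries share their length slope and age, so these values are a description. For Nbr1 the highest was Mpdz (0.990, and 0.981 between deviations from the group means). For Tax1bp1 it was Ckap5 (0.987), for Wdfy3 Hectd4 (0.981), for Ncoa4 Mybbp1a (0.978), for Calcoco1 Ssrp1 (0.9751) and for Tbk1 Lgr6 (0.830). For Optn the 3 highest were the predicted gene Gm49338 (0.930), Dhdds (0.930) and Trim54 (0.927), and between deviations from the group means these were 0.727, 0.721 and 0.612.

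Among the members themselves the correlation over the 14 libraries was 0.972 for Nbr1 and Tax1bp1, 0.965 for Tax1bp1 and Ncoa4 and 0.957 for Nbr1 and Ncoa4. Between deviations from the group means these pairs gave 0.957, 0.963 and 0.950. Optn gave 0.456 with Nbr1 and 0.406 with Tax1bp1 over the libraries, and -0.37 and -0.43 between deviations. Sqstm1, whose level the deletion sets, gave between -0.18 (Nbr1) and 0.29 (Tollip) over the libraries, and between deviations from -0.058 (Tbk1) to 0.55 (Tollip) and 0.65 (Calcoco1).

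The title of the series names Nrf2, so the promoters of the members were searched for the core of the element that Nrf2 binds, TGACNNNGC on either strand. RefSeq promoters (GRCm38.p6, 250 bases before to 50 after a start) were found for 8 of the 9 genes, Sqstm1 included, with 12 starts in all. Of all 32851 promoters of this length in the table, 12.4% held the core. It was found at 1 start each of Tax1bp1 and Ncoa4 and both matches are shown with 10 bases on each side and the core in capitals, 5′ to 3′ on the plus strand.
Tax1bp1: gtctccgtggTGACGAAGCtctctttccc
Ncoa4: aggcggggcgTGACCTGGCcggtagggta
The Tax1bp1 window is chr6:52713950-52713978, with the core at position -205 relative to that start, and the Ncoa4 window is chr14:32165735-32165763, with the core at position -44. Both genes have other starts whose windows hold no such letters. The window of Sqstm1 itself held no such core. Neither gene passed the test between genotypes, with log2 fold changes over both ages of 0.12 and 0.089. The letters CACGTG (E-box) were searched as well. They were held by 7.15% of all promoters and, among these genes, by that of Tbk1 alone. A match is a description of the letters and does not show binding.

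How reads were counted bears on some members. Optn shares 73 exon bases with the antisense gene 4930551O13Rik, Tax1bp1 shares 160 with Gm43966, and Wdfy3 shares 392 with Gm20548 and 162 with Gm42934, each on the opposite strand. Sqstm1 shares 580 with Mrnip, also on the opposite strand, which bears on its level in knockout hearts and on its share of the receptor sum. The strand setting of the counting is not given in the sources used here, so reads of these overlaps may have been assigned to either gene or left out. Nbr1, Calcoco1, Tollip, Ncoa4 and Tbk1 overlap no other annotated gene.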

How the data were processed

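Total RNA of 14 whole mouse hearts was sequenced after ribosomal RNA was removed with a strand-specific kit, per the labels' protocols. The authors deposited raw counts per Ensembl gene, made with cutadapt 1.16, STAR 2.7.3a and featureCounts 1.6.3 on GRCm38, and named DESeq2 1.26.0, per the submitters' processing notes. Not given in the sources used here are the authors' annotation release, strand setting and handling of multiply mapped reads. Reads carry no molecular identifiers. The standard errors, intervals and p-values of the edgeR test rest on the spread between libraries as well as on counting error. The table held 0 columns without a sample. No library repeated another within sampling noise: the lowest chi-square per degree of freedom between 2 libraries was 14.9.

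Symbols, positions and exon lengths came from GENCODE M21 (GRCm38), which held 55227 of 55487 identifiers. The test was that of edgeR 4.0.16 (R 4.3.3): filterByExpr (minimum count 10, minimum total 15), library totals over the genes kept, TMM scaling, a robust quasi-likelihood fit with 1 mean per group over all 14 libraries, and Benjamini-Hochberg adjustment over 15528 genes with a threshold of 0.05. CPM are counts scaled to the TMM-adjusted library total, without a pseudocount, and 0.5 was added before the log2 for correlations. Alternatives were RLE size factors, no filter, a mean of at least 1 CPM, DESeq2 1.42.0, limma voom 3.58.1, a fit of the compared groups alone, a replicate block, the length slope as a covariate, dropping the mitochondrially encoded genes, leaving out each library, and a threshold of 0.1. The scripts were tested on simulated data.

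The members and the gene lists were chosen with earlier results of these data known. Named were the 8 members and Sqstm1, up to 4 called genes per list and comparison (or up to 2 with the smallest p as values), and the 3 genes most correlated with each member, of which the first is printed, with all 3 for Optn; that of Tollip is not reported here. Nfe2l2 was also named over both ages by this rule. Comparisons that share control libraries are not independent. Protein sequences and the promoter of Wdfy3 were not used here.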

Additional observations from a re-analysis of the deposited data

Results flagged for a closer look

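In each of the 18 sets of 4 libraries at 15 months (8 members and Sqstm1 in 2 genotypes), the highest and lowest library was compared with its nearest neighbour. A gap that takes up nearly the whole range (above Dixon's 95% critical value for 4 samples) marks a sample far from the others, and chance marks about 1 in 20 sets. Of the 18 sets, 3 were marked. Tax1bp1 in knockout replicate 1 was at 75.3 CPM, with the nearest other knockout library at 108 CPM. Ncoa4 in wild-type replicate 2 was at 25.0 CPM, with the nearest other wild-type library at 35.3 CPM. These are the 2 libraries with a negative length slope at 15 months. Sqstm1 in knockout replicate 2 was at 36.99 CPM, with the nearest other knockout library at 17.6 CPM. All 3 values are part of the results above, and the cause was not tested.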

How the results depend on the processing

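Between genotypes no alternative called a member, and the values stayed within -0.24 to 0.49 on the log2 scale. The number of genes called at 2 months was 3 without a filter, 2 with a mean of at least 1 CPM, 7 with DESeq2, 5 with the length slope as a covariate and 2 at a threshold of 0.1. At 15 months it was 7 with DESeq2, 2 with only the groups compared, 2 without both libraries of negative slope, and 1 to 3 without 1 library. Over both ages DESeq2 called 5 genes, and for the difference between ages 1 gene, as did leaving out knockout replicate 2 at 2 months (0 to 1 over the libraries left out).

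Genes called with age in wild type were 1100 with DESeq2, 86 with only the groups compared, 706 at a threshold of 0.1, 2627 without both libraries of negative slope and 38 to 511 without 1 library. In knockout they were 1622, 134, 1616, 4232 and 49 to 3523 in the same order, and 86 with the length slope. Over both genotypes they were 214 with the length slope, 6415 without the libraries of negative slope and 1531 to 5589 without 1 library. Members called in wild type were 0 with only the groups compared, 5 without the libraries of negative slope and 0 to 1 without 1 library. In knockout they were 1 with DESeq2, 1 at a threshold of 0.1, 6 without the libraries of negative slope and 0 to 6 without 1 library, the 6 being without replicate 1 at 15 months. Over both genotypes they were 1 with the length slope and 1 to 6 without 1 library. Sqstm1 made up 39.7%, 5.75% and 36.7% of the receptor sum with the longest transcript, in wild type and knockout at 2 months and wild type at 15 months.

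Some values changed sign, and none was past the threshold after the change. With the length slope these were, for knockout against wild type at 15 months, Wdfy3 (-0.049), Ncoa4 (-0.095) and Tbk1 (-0.00080), and over both ages Wdfy3 (-0.012). For age in wild type they were Tollip (-0.014) and Wdfy3 (-0.036), in knockout Nbr1 (-0.095), Calcoco1 (-0.12), Tollip (-0.045), Wdfy3 (-0.11) and Ncoa4 (-0.087), and over both genotypes Calcoco1 (-0.00064), Tollip (-0.030) and Wdfy3 (-0.074). Without the covariate, Calcoco1 (0.52) and Wdfy3 (0.44) had been called over both genotypes, and Nbr1 (0.60), Calcoco1 (0.49), Wdfy3 (0.49) and Ncoa4 (0.42) were well above 0 in knockout. For Tbk1 with age in knockout the value was 0.0048 with RLE size factors, 0.016 without a filter, 0.0063 with DESeq2 and 0.098 without the libraries of negative slope, and over both genotypes 0.0011 without a filter and 0.046 without those libraries. Tollip between genotypes at 15 months was 0.023 without those libraries. Over the libraries left out, values between genotypes at 2 months ranged from -0.046 to 0.11 for Optn, -0.10 to 0.018 for Tollip, -0.057 to 0.13 for Wdfy3 and -0.087 to 0.10 for Tbk1. At 15 months they ranged from -0.081 to 0.020 for Tollip, -0.084 to 0.28 for Wdfy3, -0.063 to 0.21 for Ncoa4 and -0.039 to 0.15 for Tbk1, and over both ages from -0.023 to 0.15 for Wdfy3 and -0.021 to 0.086 for Tbk1. With age, Tbk1 ranged from -0.11 to 0.016 in wild type, -0.091 to 0.10 in knockout and -0.061 to 0.036 over both genotypes.

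The main fit did not pair samples by replicate number. The correlation of same-numbered libraries' deviations from their group means lay between -0.51 and 0.50. Libraries of different numbers were not compared in this way, so these values cannot decide whether the numbers pair the samples. With a replicate block the age comparison in wild type called 101 genes, with Optn at 0.77 (edgeR adjusted p = 0.049), and over both genotypes 4 of 8 members passed. For the other causes of these changes, the cause was not tested. The 3 or 4 hearts a group and the spread of length slopes limit the precision, and for Tbk1, with as few as 200 counts in a library, so does the depth.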
